A study of Komagataella pastoris with 4 samples.

Results

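The transcriptomes of 2 deletion strains of the methylotrophic yeast Komagataella pastoris (Pichia pastoris) were compared directly with each other: one labelled as lacking the transcription factor Mxr1 and one labelled as lacking Gal83. Both had been grown for 14 h in YNBM, a minimal medium with methanol. The ratio used the counts of these 2 libraries only, over every row of the deposited table with a mean of at least 20 counts across the 4 libraries of the study, which kept 5420 of 5427 rows. The study also held 1 library of the parent strain GS115, the wild type here, which is a histidine auxotroph with no antibiotic resistance, and another of a strain lacking the histone acetyltransferase Gcn5. The 3 deletion strains are histidine auxotrophs that carry Zeocin resistance, so the resistance marker separates all of them from the wild type but not the 2 compared strains from each other. The labels do not say whether a strain was 1 clone, nor whether cultures were pooled. Each strain had 1 library, so differences between cultures were not measured and no p-value is given.

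Methanol is oxidised to formaldehyde by alcohol oxidase in the peroxisome, and dihydroxyacetone synthase then joins formaldehyde to xylulose 5-phosphate, which the pentose phosphate pathway renews. Mxr1 is a zinc-finger activator known for switching on these genes in this yeast. Gal83 belongs to the beta subunits of Snf1, the fungal AMP-activated kinase, which in Saccharomyces cerevisiae lets cells use carbon sources other than glucose by relieving repression of genes for acetate, ethanol and glycerol use. The direct ratio asks in which pathways the 2 losses leave different transcript levels.

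Counts were 34646983 in the Mxr1-labelled and 30582006 in the Gal83-deletion library, against 48539082 in the wild type and 30741258 without Gcn5. The median row kept had 1632 and 2088 counts in the compared pair. The 20 highest rows of each library took 31.8% of the Mxr1-labelled and 16.4% of the Gal83-deletion counts, so scaling matters here. Libraries were scaled by the median of ratios (factors 0.896 and 1.116), which sets the median log2 ratio of all rows to 0. Scaling by total counts instead lowers every log2 ratio by 0.50, and a list's counts under it are given wherever either moves by over 1.5 times. Ratios are log2, Mxr1-labelled over Gal83 deletion, with an exact 95% interval that covers counting error only. A row was called when the difference was at least 2-fold and the interval excluded equality. Counts are relative within a library, so RNA content per cell was not measured, and fewer cells of one kind in a culture cannot be told apart from less RNA per cell.

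The deleted gene was checked first. The row described as a beta subunit of the Snf1 kinase (gene1360) had 3996 counts in the Mxr1-labelled and 8 in the Gal83-deletion library, beside 5215 in the wild type and 2263 without Gcn5, a log2 ratio of 9.19 (interval 8.30 to 10.49). Only the Gal83-deletion library is low, which is what its label says. A second row, gene161, carries the description glucose repression protein GAL83, and it held 3707 counts in the Mxr1-labelled and 5513 in the Gal83-deletion library, beside 13620 in the wild type and 2112 without Gcn5, with a ratio of -0.26 (interval -0.32 to -0.20). That row is present at similar levels in the compared pair, so the deletion is not seen in it. The description Mxr1 appears in no row, so the other library's label has no check of its own gene, and every direction below rests on it. A zinc-finger factor row described as responsive to the carbon source (gene4868) held 11606 counts in the Mxr1-labelled and 14036 in the Gal83-deletion library, beside 9114 in the wild type and 4134 without Gcn5, a ratio of 0.04 (interval 0.01 to 0.08). Its log2 difference from the wild type was 1.17 in the Mxr1-labelled library, so the row is not low there. Whether that row is Mxr1 is not settled by the table. If it is, its counts do not bear out the label.

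Of the 5420 rows, 673 (12.4%) were higher and 733 (13.5%) lower in the Mxr1-labelled library at 2-fold. Those higher made up 47.9% of the calls, whereas under total-count scaling 262 rows were higher and 1468 lower, and those higher made up 15.1%. At 4-fold the numbers were 126 (2.32%) and 187 (3.45%), and at 10-fold they were 25 (0.461%) and 43 (0.793%). The ratio drifted with abundance. Among the 1084 rows with the lowest mean counts, 100 were higher and 172 lower at 2-fold, with a median log2 ratio of -0.14. Among the 1084 with the highest mean counts, 232 were higher and 167 lower, with a median of 0.23. The all-row shares given below are not matched for abundance, so they may overstate an excess of higher calls in lists of abundant rows. Of the 12 described rows furthest on the higher side, many belong to the carnitine shuttle, acetate activation and the glyoxylate cycle, and the deleted Snf1 subunit leads them. The 12 furthest on the lower side were of mixed kinds, among them 3 flavin oxidoreductases, a protein kinase-like row, a peroxisomal nudix enzyme, a thiamine enzyme, a protease, a lectin-like row and the alternative oxidase.

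**Figure D1:**
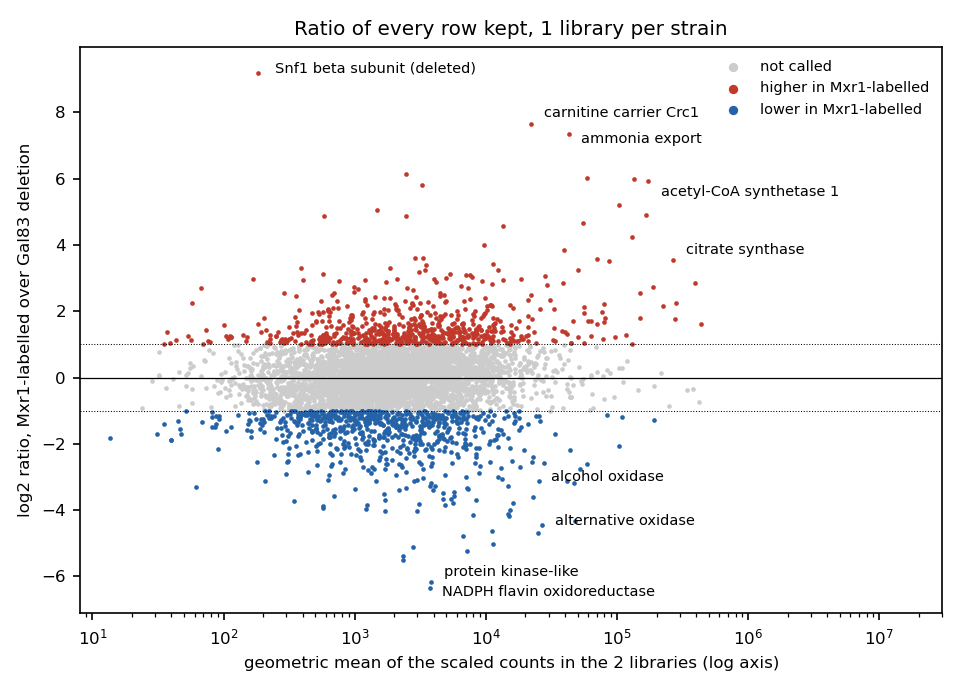
Log2 ratio of Mxr1-labelled over Gal83-deletion counts for each of the 5420 rows, against the geometric mean of the scaled counts in the 2 libraries (log axis), with 1 library per strain. Red points are the 673 rows called higher in the Mxr1-labelled library, blue points the 733 called lower, grey points are not called, and dotted lines mark 2-fold; several of the most abundant rows lie far above the upper line.

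The carnitine shuttle carries acetyl units between the cytosol, peroxisomes and mitochondria. Among the 36 gene lists, it was the furthest above the median of all rows. The lists were chosen with earlier results of these data known, so this rank is not independent of the values. Of 4 rows, 4 were called higher and 0 lower in the Mxr1-labelled library, beside 12.4% and 13.5% of all rows. The median log2 ratio was 5.05, beside 0.00 over all rows. The mitochondrial carnitine carrier Crc1 (gene2069), which exchanges acylcarnitine across the inner membrane, had 281013 counts in the Mxr1-labelled and 1735 in the Gal83-deletion library, beside 6862 in the wild type and 2795 without Gcn5. Its ratio was 7.65 (interval 7.59 to 7.72), a 202-fold difference. The Mxr1-labelled library is the single high one among the 4, and the Gal83-deletion library is the lowest. The outer mitochondrial carnitine acetyltransferase (gene890), which loads acetyl groups onto carnitine, had 559912 counts in the Mxr1-labelled and 18972 in the Gal83-deletion library, beside 20870 in the wild type and 8952 without Gcn5, a ratio of 5.20 (interval 5.18 to 5.22). A carnitine acetyl-CoA transferase described as mitochondrial and peroxisomal (gene4293) had 817603, 34202, 16667 and 10418 counts in the same order, a ratio of 4.89 (interval 4.88 to 4.91). In both acetyltransferase rows the 3 other libraries lie far below the Mxr1-labelled one. The fourth row, gene3523, also a carnitine acetyltransferase, had 218084, 22654, 34602 and 17258 counts and a ratio of 3.58 (interval 3.56 to 3.60). Together the 4 rows took 5.42% (Wilson 95% interval 5.41% to 5.42%) of the Mxr1-labelled counts and 0.254% (Wilson 95% interval 0.252% to 0.255%) of the Gal83-deletion counts.

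Acetate activation, the glyoxylate cycle and gluconeogenesis showed the same direction. Of 9 rows, 8 were called higher and 0 lower in the Mxr1-labelled library, beside 12.4% and 13.5% of all rows. The median log2 ratio was 3.84, and under total-count scaling 8 and 1 were called. Acetyl-CoA synthetase 1 (gene2210), which turns acetate into acetyl-CoA, was the most abundant row of the Mxr1-labelled library, with 1212003 counts in the Mxr1-labelled and 24821 in the Gal83-deletion library, beside 53278 in the wild type and 51864 without Gcn5. Its ratio was 5.93 (interval 5.91 to 5.94), or 60.8-fold. Malate synthase 2 (gene5220), the second enzyme of the glyoxylate cycle, had 953167, 18813, 34827 and 35460 counts in the same order and a ratio of 5.98 (interval 5.96 to 6.00). Isocitrate lyase (gene1180), the first enzyme of that cycle, had 507522, 33641, 17993 and 10988 counts and a ratio of 4.23 (interval 4.21 to 4.25). For these rows the Mxr1-labelled library stands alone, and the 3 others lie at least several fold below it. The succinate/fumarate transporter (gene4652), which moves glyoxylate-cycle succinate into mitochondria, had 247002, 12258, 17384 and 7677 counts and a ratio of 4.65 (interval 4.62 to 4.67). Also picked after their values were seen were acetyl-CoA synthetase 2 (gene3907) and malate synthase G (gene1316). The synthetase had 134371, 11657, 4534 and 6033 counts and a ratio of 3.84 (interval 3.82 to 3.87). The malate synthase went the other way, at 3275, 6202, 16308 and 2996 counts and -0.61, not called at 2-fold.

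The 2 enzymes that lead from this pool to sugar behaved differently from the glyoxylate rows when the wild type is set beside them. Phosphoenolpyruvate carboxykinase (gene1609), which commits oxaloacetate to gluconeogenesis, was picked for mention after its values were seen. It had 261604 counts in the Mxr1-labelled and 28327 in the Gal83-deletion library, beside 298375 in the wild type and 368178 without Gcn5, a ratio of 3.52 (interval 3.51 to 3.54). Here the Gal83-deletion library is the low one, and the Mxr1-labelled library lies near the wild type, at log2 differences from it of 0.63 in the Mxr1-labelled and -2.90 in the Gal83-deletion library. Fructose-1,6-bisphosphatase (gene3397), a key gluconeogenic enzyme, was also picked after its values were seen, with 134508, 48182, 212967 and 33128 counts in the same order and a ratio of 1.80 (interval 1.78 to 1.81). The 9 rows of this list took 10.2% (Wilson 95% interval 10.2% to 10.3%) of the Mxr1-labelled and 0.704% (Wilson 95% interval 0.701% to 0.707%) of the Gal83-deletion counts.

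**Figure D2:**
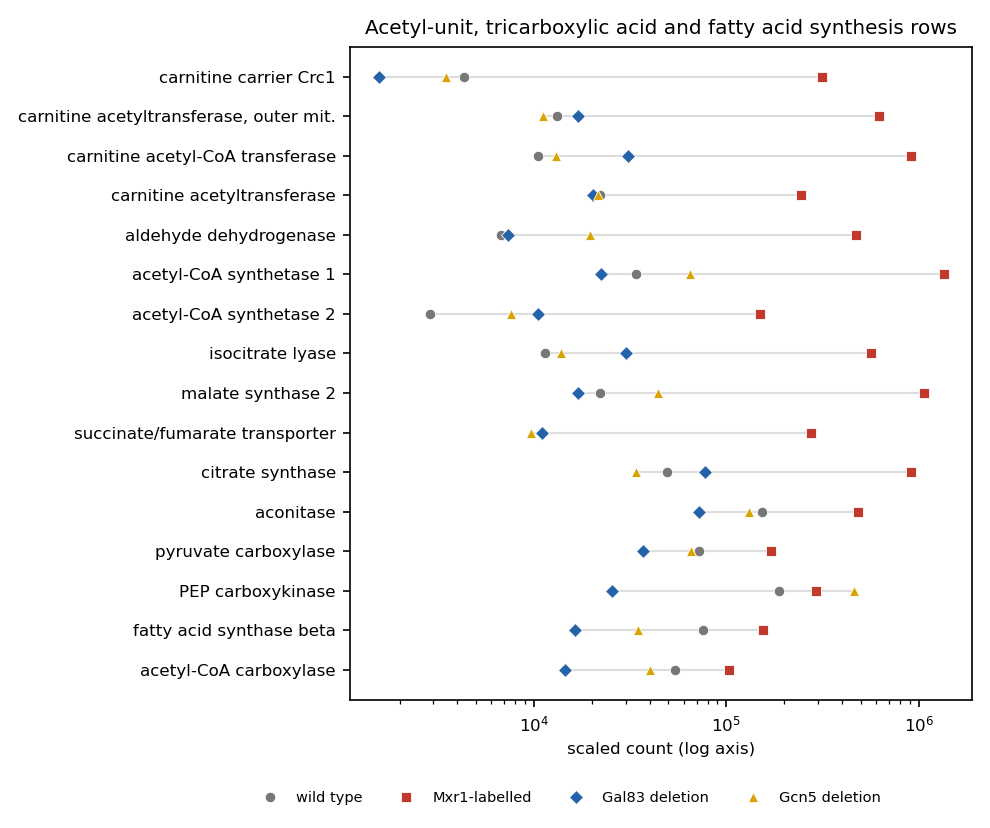
Scaled counts (log axis) of 16 rows in the 4 libraries, 1 library per strain, with each symbol a library and the grey line the range. For the carnitine, acetate and glyoxylate rows the red squares of the Mxr1-labelled library stand alone on the right. For phosphoenolpyruvate (PEP) carboxykinase and the fatty acid synthesis rows the blue diamond of the Gal83-deletion library lies furthest left.

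The tricarboxylic acid cycle, which burns acetyl-CoA in mitochondria, was higher in the Mxr1-labelled library over most of its length. Of 18 rows, 12 were called higher and 0 lower in the Mxr1-labelled library, beside 12.4% and 13.5% of all rows. The median log2 ratio was 1.73, and all 18 lay above 0. Under total-count scaling the 12 calls remained 12 and the median was 1.24. Citrate synthase (gene444), which joins acetyl-CoA to oxaloacetate, had 819218 counts in the Mxr1-labelled and 86924 in the Gal83-deletion library, beside 77316 in the wild type and 27136 without Gcn5, a ratio of 3.55 (interval 3.54 to 3.56). Aconitase (gene108), the next enzyme, had 435852, 80879, 241878 and 104567 counts and a ratio of 2.75 (interval 2.73 to 2.76). Pyruvate carboxylase (gene1676), which refills oxaloacetate, had 152297, 41104, 113770 and 52487 counts and a ratio of 2.21 (interval 2.19 to 2.22). Citrate synthase is high in the Mxr1-labelled library only, whereas for aconitase and pyruvate carboxylase that library is the highest and the Gal83-deletion library the lowest of the 4. The cytochrome b subunit of succinate dehydrogenase (gene1346), which feeds electrons to ubiquinone, had 20545, 5619, 8953 and 4071 counts and a ratio of 2.19 (interval 2.14 to 2.23).

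Rows for alcohol and aldehyde metabolism were split. Of 19 rows, 5 were called higher and 4 lower in the Mxr1-labelled library, beside 12.4% and 13.5% of all rows. The median log2 ratio was -0.22, and under total-count scaling 4 and 8 were called. An aldehyde dehydrogenase (gene3263), of an enzyme family that oxidises acetaldehyde and related aldehydes, had 424716 counts in the Mxr1-labelled and 8197 in the Gal83-deletion library, beside 10666 in the wild type and 15578 without Gcn5, a ratio of 6.01 (interval 5.98 to 6.04). An alcohol dehydrogenase GroES-like row (gene2541) was abundant everywhere, with 944968, 162078, 345008 and 792969 counts in the same order and a ratio of 2.86 (interval 2.85 to 2.87). Both the Mxr1-labelled and the Gcn5-deletion libraries are high in that row. A phenylpyruvate decarboxylase (gene4266), from amino acid breakdown, had 72922, 10967, 4062 and 3156 counts and a ratio of 3.05 (interval 3.02 to 3.08). In the opposite direction, an NADPH-dependent medium-chain alcohol dehydrogenase (gene693) had 423, 6877, 1193 and 2660 counts and a ratio of -3.71 (interval -3.85 to -3.57).

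Fatty acid synthesis, the cytosolic pathway that consumes acetyl-CoA, separated the strains mainly through low levels in the Gal83-deletion library. Of 9 rows, 5 were called higher and 1 lower in the Mxr1-labelled library, beside 12.4% and 13.5% of all rows. The median log2 ratio was 1.76. The median differences from the wild type were 0.26 in the Mxr1-labelled and -1.17 in the Gal83-deletion library. Acetyl-CoA carboxylase (gene1083), which makes malonyl-CoA and whose activity Snf1 is known to restrain in Saccharomyces cerevisiae, had 93009 counts in the Mxr1-labelled and 16097 in the Gal83-deletion library, beside 85146 in the wild type and 32212 without Gcn5, a ratio of 2.85 (interval 2.82 to 2.87). The beta subunit of fatty acid synthase (gene313) had 139221, 18252, 119256 and 27896 counts and a ratio of 3.25 (interval 3.22 to 3.27). Its alpha subunit (gene1133) had 61843, 15333, 90765 and 23901 counts and a ratio of 2.33 (interval 2.30 to 2.35). In all 3 rows the Gal83-deletion library has the lowest level, with log2 differences from the wild type of -1.90, -2.21 and -2.06. In the Mxr1-labelled library these differences were 0.94, 1.04 and 0.26. A delta(9) desaturase row (gene2986), which introduces the first double bond, had 456156, 165403, 316398 and 523869 counts and a ratio of 1.78 (interval 1.77 to 1.79). It differed from the wild type more in the Mxr1-labelled library, at 1.35, than in the Gal83-deletion library, at -0.43. Another row with the same description (gene5144), picked after its values were seen, was called lower, at -1.53. Whether these desaturase rows share reads was not tested. Sterol synthesis had 3 of 17 higher and 1 lower, beside 12.4% and 13.5% of all rows. Its median was 0.11, and under total-count scaling 1 and 3 were called. HMG-CoA synthase (gene2854), an early enzyme of the sterol pathway, was at 1.26.

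Among the rows for nitrogen, the ones for ammonia export were divided. Of 5 rows, 2 were called higher and 2 lower in the Mxr1-labelled library, beside 12.4% and 13.5% of all rows. The median log2 ratio was 0.23. Without rows beside a row with the same description, 3 rows remained, with 1 higher, 2 lower and a median of -2.20. These membrane proteins are described as exporting ammonia, and the descriptions of gene483 and gene2342 call it a starvation signal. The row gene483 had 487254 counts in the Mxr1-labelled and 3768 in the Gal83-deletion library, beside 7051 in the wild type and 5339 without Gcn5, a ratio of 7.33 (interval 7.28 to 7.38), or 161-fold. It is high in the Mxr1-labelled library alone. The row gene765 had 7604, 282, 3093 and 3300 counts and a ratio of 5.07 (interval 4.90 to 5.25), and there the Gal83-deletion library is low while the Mxr1-labelled one is the highest after scaling. By contrast gene2342 had 18252, 104323, 33111 and 11754 counts and a ratio of -2.20 (interval -2.22 to -2.18), with the Gal83-deletion library high. The last of the called rows, gene717, had 2397, 15822, 31601 and 6477 counts and a ratio of -2.41 (interval -2.47 to -2.34). These rows are related in description, and sharing of reads between copies was not tested.

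Among rows for uptake and use of other nitrogen sources, more were lower than higher in the Mxr1-labelled library. Of 37 rows, 5 were called higher and 12 lower in the Mxr1-labelled library, beside 12.4% and 13.5% of all rows. The median log2 ratio was -0.62, and under total-count scaling 4 and 19 were called. As a share of counts the list was nevertheless larger in the Mxr1-labelled library, at 3.17%, 2.09%, 1.84% and 1.89% in the order Mxr1-labelled, Gal83 deletion, wild type and Gcn5 deletion. The urea transporter Dur3 (gene2970) had 281 counts in the Mxr1-labelled and 3578 in the Gal83-deletion library, beside 6835 in the wild type and 1819 without Gcn5, a ratio of -3.35 (interval -3.54 to -3.18). Allantoinase (gene16), the first step of allantoin breakdown, had 667, 6354, 2112 and 1156 counts and a ratio of -2.94 (interval -3.05 to -2.82). The ammonium transporter MEP2 (gene1243) had 799, 6452, 14566 and 1868 counts and a ratio of -2.70 (interval -2.81 to -2.59). Dur3 and MEP2 are lowest in the Mxr1-labelled library, whereas allantoinase is highest in the Gal83-deletion library. Against this direction, the arginine permease of the plasma membrane (gene1640) had 34779, 2691, 4290 and 881 counts and a ratio of 4.01 (interval 3.95 to 4.06).

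One-carbon rows that handle folate and glycine were more often higher than lower in the Mxr1-labelled library. Of 11 rows, 5 were called higher and 1 lower in the Mxr1-labelled library, beside 12.4% and 13.5% of all rows. The median log2 ratio was 0.64, and under total-count scaling 3 and 1 were called. C-1-tetrahydrofolate synthase (gene5169), which interconverts one-carbon folates, had 19889 counts in the Mxr1-labelled and 2912 in the Gal83-deletion library, beside 8101 in the wild type and 3477 without Gcn5, a ratio of 3.09 (interval 3.03 to 3.14). Glycine dehydrogenase (gene1601), of the glycine cleavage system, had 16804, 3202, 8732 and 4670 counts and a ratio of 2.71 (interval 2.65 to 2.76); a neighbouring row called the same way has at least 10 times its counts. The folate-binding aminomethyltransferase of that system (gene2010) had 15413, 3713, 7478 and 3164 counts and a ratio of 2.37 (interval 2.32 to 2.42). Methylenetetrahydrofolate reductase (gene1819), which diverts folate to methionine, went the other way, with 269, 2443, 5047 and 1391 counts and a ratio of -2.87 (interval -3.05 to -2.69). Among sulfur and methionine rows (5 of 17 higher and 4 lower, median 0.07, or 3 and 7 under total-count scaling) the high-affinity methionine permease (gene4344) was the most different, at 2270, 423, 1104 and 1123 counts and 2.74.

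Thiamine rows differed in both directions. Of 9 rows, 2 were called higher and 3 lower in the Mxr1-labelled library, beside 12.4% and 13.5% of all rows. The median log2 ratio was -0.40, and under total-count scaling 1 and 4 were called. The row described as regulatory protein thi1 of thiamine-repressible genes (gene4808) had 58478 counts in the Mxr1-labelled and 3063 in the Gal83-deletion library, beside 25266 in the wild type and 28323 without Gcn5, a ratio of 4.57 (interval 4.52 to 4.62). The multifunctional hydroxymethylpyrimidine kinase row (gene3431), which makes a thiamine precursor, had 423, 18192, 6468 and 1889 counts and a ratio of -5.11 (interval -5.25 to -4.97). Its neighbour gene3430, a thiamine biosynthetic bifunctional enzyme, had 180, 2680, 5115 and 1344 counts and a ratio of -3.58 (interval -3.81 to -3.36). The regulator row is therefore low and the 2 biosynthetic rows are high in the Gal83-deletion relative to the Mxr1-labelled library. Thiamine thiazole synthase (gene3647) had 8359, 61086, 53321 and 10585 counts and a ratio of -2.55 (interval -2.59 to -2.52).

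Metal uptake was mixed as well. Of 21 rows, 5 were called higher and 6 lower in the Mxr1-labelled library, beside 12.4% and 13.5% of all rows. The median log2 ratio was -0.22. A ferric and cupric reductase (gene3011), which reduces metals before uptake, had 5253 counts in the Mxr1-labelled and 658 in the Gal83-deletion library, beside 4109 in the wild type and 2431 without Gcn5, a ratio of 3.31 (interval 3.20 to 3.43). The blue copper protein row gene2183 had 68546, 12311, 81375 and 60078 counts and a ratio of 2.79 (interval 2.77 to 2.82). A divalent metal transporter (gene3574) had 9781, 2061, 6433 and 3156 counts and a ratio of 2.56 (interval 2.49 to 2.63). In each of these rows the Gal83-deletion library is lowest after scaling. The copper-exporting ATPase row gene4601 was the most different on the lower side, at 3432, 67692, 7747 and 3166 counts and -3.99 (interval -4.04 to -3.94), with the Gal83-deletion library alone high.

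Cytosolic ribosomal proteins differed by modest amounts in a common direction. Of 79 rows, 47 were called higher and 0 lower in the Mxr1-labelled library, beside 12.4% and 13.5% of all rows. The median log2 ratio was 1.14, and 76 lay above 0. The median differences from the wild type were -0.60 in the Mxr1-labelled and -1.83 in the Gal83-deletion library, so the group was below the wild type in both. Under total-count scaling 17 rows were higher and 2 lower, with a median of 0.65, so the number of calls depends on the scaling. The protein S22 of the small subunit (gene394) had 2149 counts in the Mxr1-labelled and 450 in the Gal83-deletion library, beside 1639 in the wild type and 1415 without Gcn5, a ratio of 2.57 (interval 2.42 to 2.72). The row described as L22-like (gene5380), of the large subunit, had 6121, 1604, 9597 and 5445 counts and a ratio of 2.25 (interval 2.17 to 2.33). For both rows the Gal83-deletion library is the lowest of the 4. As shares of counts, the list took 1.95%, 1.31%, 3.6% and 2.5% of counts in the order Mxr1-labelled, Gal83 deletion, wild type and Gcn5 deletion. Ribosome biogenesis leaned the same way (16 of 78 higher and 2 lower, median 0.61), beside 12.4% higher and 13.5% lower over all rows. Under total-count scaling, however, it had 4 rows higher and 10 lower. Its most different row was U3 snoRNA-associated protein 10 (gene1702), of the small-subunit processome, at 10139, 1601, 6687 and 7175 counts and 2.98 (interval 2.90 to 3.06). Mitochondrial ribosomal proteins did not share the direction (0 of 10 higher and 2 lower, median -0.17).

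Respiratory chain rows were slightly higher in the Mxr1-labelled library, to be read beside 12.4% higher and 13.5% lower over all rows. Those shares are not matched for abundance. Among the 1084 most abundant rows, 232 were called higher and 167 lower, with a median of 0.23. For complex I, the proton-pumping NADH dehydrogenase, 8 of 32 higher and 0 lower, median 0.67, and all 32 rows lay above 0, with 2 still called under total-count scaling. ATP synthase had 4 of 14 higher and 0 lower, median 0.87. Its row for the C-terminal domain of F1 subunits (gene1847) had 104457 counts in the Mxr1-labelled and 29834 in the Gal83-deletion library, beside 168064 in the wild type and 75013 without Gcn5, a ratio of 2.12 (interval 2.10 to 2.14). Complexes III and IV were less uniform (1 of 17 higher and 2 lower, median 0.47, or 0 and 2 under total-count scaling), and total-count scaling moved their median to -0.02. The 2 lower rows there, gene3415 and gene3455, are described only by a structural domain of the bc1 complex, at -2.12 and -2.28.

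**Figure D3:**
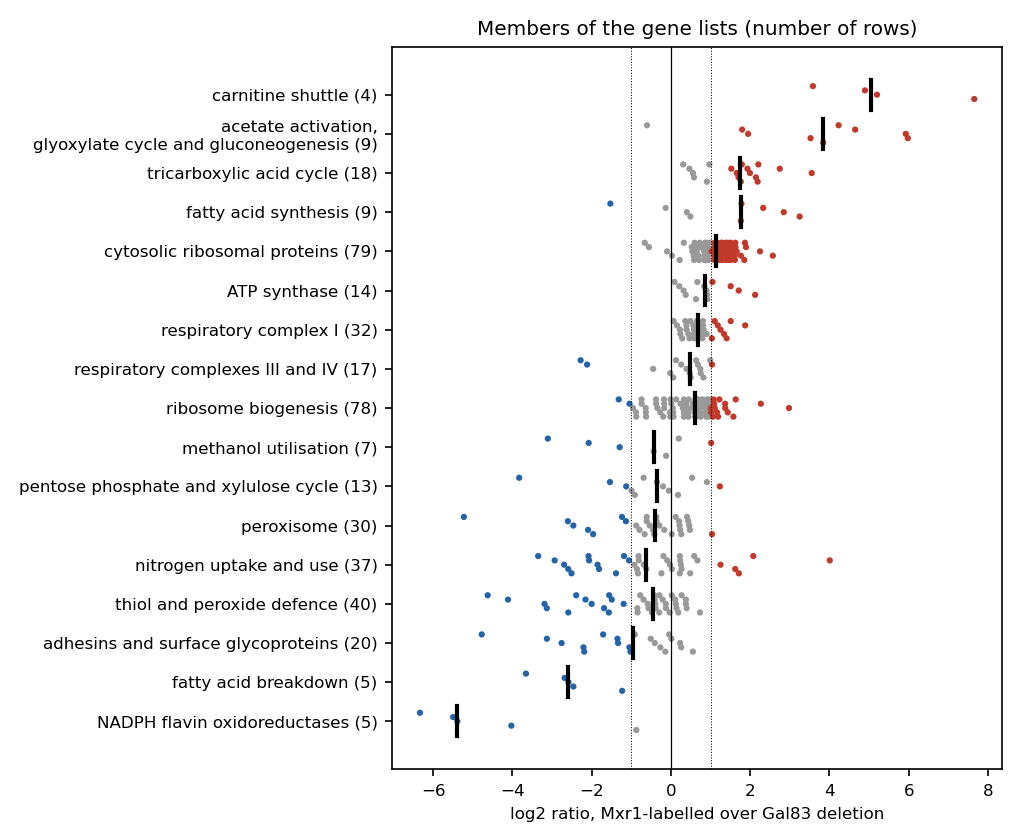
Log2 ratios of Mxr1-labelled over Gal83 deletion for the members of 17 gene lists, with the number of rows in brackets; each point is a row, red and blue points are called higher and lower, the black bar is the median and dotted lines mark 2-fold. The 4 carnitine rows lie between 3.58 and 7.65, and the 5 NADPH flavin oxidoreductase rows between -6.34 and -0.87.

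On methanol utilisation itself, most rows lay far below the wild type in both compared libraries, and they differed from each other row by row. Of 7 rows, 1 was called higher and 3 lower in the Mxr1-labelled library, beside 12.4% and 13.5% of all rows. The median log2 ratio was -0.44, and under total-count scaling 0 and 3 were called. The main alcohol oxidase row (gene4497), the peroxisomal enzyme that oxidises methanol, had 7694 counts in the Mxr1-labelled and 82599 in the Gal83-deletion library, beside 1336239 in the wild type and 181648 without Gcn5. Its ratio was -3.11 (interval -3.14 to -3.08), or 8.63-fold lower, and the differences from the wild type were -6.62 in the Mxr1-labelled and -3.51 in the Gal83-deletion library. From high to low after scaling the order was wild type, Gcn5 deletion, Gal83 deletion and Mxr1-labelled. A second row with the same description (gene5263) had 3653, 3968, 37737 and 5487 counts in the order Mxr1-labelled, Gal83 deletion, wild type, Gcn5 deletion, and its ratio was 0.20 (interval 0.13 to 0.26). Whether reads were split between these oxidase rows was not tested, so the rows are not compared.

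Dihydroxyacetone synthase, which fixes formaldehyde onto xylulose 5-phosphate, was also represented by 2 rows. The larger, gene3440, had 109707 counts in the Mxr1-labelled and 335122 in the Gal83-deletion library, beside 1735188 in the wild type and 444944 without Gcn5, a ratio of -1.30 (interval -1.31 to -1.29). The other, gene3442, had 94953, 128644, 902688 and 188093 counts and a ratio of -0.12 (interval -0.13 to -0.11). The pair differs in its ratio, and whether reads are shared between these rows was not tested. Peroxisomal catalase (gene1803), which removes the hydrogen peroxide that alcohol oxidase makes, had 45083, 236712, 406204 and 271497 counts and a ratio of -2.08 (interval -2.09 to -2.06). Catalase was low in the Mxr1-labelled library and close to the wild type in the Gal83-deletion one, at -2.35 in the Mxr1-labelled and -0.28 in the Gal83-deletion library. Dihydroxyacetone kinase (gene3432), which phosphorylates the product of the synthase, had 33198, 55918, 267489 and 74143 counts and a ratio of -0.44 (interval -0.46 to -0.42), short of 2-fold. S-(hydroxymethyl)glutathione dehydrogenase (gene3220), which starts the oxidation of formaldehyde to formate, was the row called higher, at 166102, 102345, 380165 and 147038 counts and 1.01; total-count scaling ends that call. Together the 7 rows took 1.33%, 3.09%, 10.4% and 4.27% of counts in the order Mxr1-labelled, Gal83 deletion, wild type and Gcn5 deletion.

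The pentose phosphate and xylulose rows that renew the formaldehyde acceptor repeated this unevenness. Of 13 rows, 1 was called higher and 3 lower in the Mxr1-labelled library, beside 12.4% and 13.5% of all rows. The median log2 ratio was -0.35, and under total-count scaling 0 and 6 were called. Fructose-bisphosphate aldolase appears in 2 rows, described as the same variant, with opposite ratios. The row gene655 had 1149 counts in the Mxr1-labelled and 20369 in the Gal83-deletion library, beside 141376 in the wild type and 17830 without Gcn5, a ratio of -3.83 (interval -3.92 to -3.75). The row gene386 had 68654, 36323, 146049 and 169954 counts and a ratio of 1.23 (interval 1.22 to 1.25), although total-count scaling takes it below 2-fold. The first stood at -6.13 against the wild type on the log2 scale in the Mxr1-labelled library, and the second at -0.27. Ribulose-phosphate 3-epimerase (gene3868) was at -1.54 and ribose-5-phosphate isomerase (gene5198) at -1.13.

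Peroxisome rows that differed were mostly lower in the Mxr1-labelled library. Of 30 rows, 1 was called higher and 7 lower in the Mxr1-labelled library, beside 12.4% and 13.5% of all rows. The median log2 ratio was -0.40, and under total-count scaling 0 and 13 were called. A peroxisomal nudix pyrophosphatase described as specific for coenzyme A (gene3725) had 1057 counts in the Mxr1-labelled and 49320 in the Gal83-deletion library, beside 37258 in the wild type and 35566 without Gcn5, a ratio of -5.23 (interval -5.32 to -5.14). The Mxr1-labelled library alone is low in this row. A peroxisomal membrane-associated protein (gene1412) had 5375, 28526, 154296 and 30483 counts and a ratio of -2.09 (interval -2.13 to -2.05). An integral membrane peroxin (gene3390) had 786, 5943, 1743 and 731 counts and a ratio of -2.60 (interval -2.71 to -2.50), and in that row the Gal83-deletion library alone is high. The row numbered next to it, the kinase-like gene3391, was called the same way with 36324 Gal83-deletion counts. Whether the peroxin ratio carries reads of that row was not tested. Most rows of the list, which is largely peroxins, the proteins that build the organelle, were not called.

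Fatty acid breakdown, which in yeasts is peroxisomal, was lower in the Mxr1-labelled library in every row listed. Of 5 rows, 0 were called higher and 5 lower in the Mxr1-labelled library, beside 12.4% and 13.5% of all rows. The median log2 ratio was -2.59. Acyl-CoA oxidase (gene1403), the first enzyme of beta-oxidation, had 1364 counts in the Mxr1-labelled and 21455 in the Gal83-deletion library, beside 30722 in the wild type and 7473 without Gcn5, a ratio of -3.66 (interval -3.74 to -3.58). The thiolase row (gene1962), the last step, had 2020, 15115, 13401 and 5741 counts and a ratio of -2.59 (interval -2.66 to -2.52). Acyl-CoA thioesterase (gene2461), also counted among the peroxisome rows, had 662, 4547, 3332 and 850 counts and a ratio of -2.46 (interval -2.58 to -2.35). The Mxr1-labelled library is the lowest in all 3 rows, and the Gal83-deletion library is near or above the wild type.

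Among the 36 gene lists, the NADPH-dependent flavin oxidoreductases were the furthest below the median of all rows, a rank that likewise depends on how lists were chosen. Of 5 rows, 0 were called higher and 4 lower in the Mxr1-labelled library, beside 12.4% and 13.5% of all rows. The median log2 ratio was -5.39. These enzymes pass electrons from NADPH through flavin mononucleotide, and 4 of the rows are consecutive in the table. The first of them, gene3935, had 372 counts in the Mxr1-labelled and 37461 in the Gal83-deletion library, beside 3833 in the wild type and 2222 without Gcn5, a ratio of -6.34 (interval -6.49 to -6.19), or 80.8-fold. The next, gene3936 and gene3937, had ratios of -5.50 (interval -5.67 to -5.34) and -5.39 (interval -5.56 to -5.23). The last of the run, gene3938, had 376, 7647, 2436 and 787 counts and a ratio of -4.03 (interval -4.18 to -3.88). In each, the Gal83-deletion library is high and the Mxr1-labelled library low against both the wild type and the Gcn5 deletion. Because the rows are neighbours with the same description, reads could be shared among them, so they are not 4 separate observations.

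Thiol and peroxide defence leaned the same way. Of 40 rows, 0 were called higher and 13 lower in the Mxr1-labelled library, beside 12.4% and 13.5% of all rows. The median log2 ratio was -0.45. A thioredoxin-like row (gene999) had 1989 counts in the Mxr1-labelled and 61135 in the Gal83-deletion library, beside 4115 in the wild type and 2447 without Gcn5, a ratio of -4.63 (interval -4.69 to -4.56). Glutathione peroxidase (gene2096), which reduces peroxides with glutathione, had 3160, 68116, 6562 and 5040 counts and a ratio of -4.11 (interval -4.17 to -4.06). In both, the Gal83-deletion library alone is high, and the 3 others lie close together. Cytochrome c peroxidase (gene1799), of the mitochondrial intermembrane space, had 13842, 157371, 91960 and 15083 counts and a ratio of -3.19 (interval -3.22 to -3.17). Another thioredoxin-like row (gene1911) had 12573, 137381, 38680 and 16442 counts and a ratio of -3.13 (interval -3.16 to -3.11). The list took 0.601%, 2.58%, 1.1% and 0.76% of counts in the order Mxr1-labelled, Gal83 deletion, wild type and Gcn5 deletion.

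The alternative oxidase (gene3901), which bypasses complexes III and IV and passes electrons to oxygen without pumping protons, had 5162 counts in the Mxr1-labelled and 139203 in the Gal83-deletion library, beside 68510 in the wild type and 7589 without Gcn5. The ratio was -4.44 (interval -4.48 to -4.40), or 21.7-fold lower in the Mxr1-labelled library. The 2 compared strains lie on opposite sides of the wild type, at -2.91 in the Mxr1-labelled and 1.52 in the Gal83-deletion library. The other respiratory bypass rows, which are NADH dehydrogenases, were within 2-fold. That left the whole list at 0 of 4 higher and 1 lower, median -0.39, beside 12.4% and 13.5% of all rows. The internal NADH dehydrogenase (gene2245) had 4148, 6455, 11176 and 3275 counts and a ratio of -0.32.

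Sugar and glycerol uptake was lower in part. Of 16 rows, 2 were called higher and 4 lower in the Mxr1-labelled library, beside 12.4% and 13.5% of all rows. The median log2 ratio was 0.03, and under total-count scaling 1 and 5 were called. Glycerol kinase (gene4542), the first step of glycerol use, had 3140 counts in the Mxr1-labelled and 70920 in the Gal83-deletion library, beside 27283 in the wild type and 28074 without Gcn5, a ratio of -4.18 (interval -4.23 to -4.13). The glycerol uptake facilitator (gene4541), which lies next to it in the table, had 4247, 51267, 18605 and 13552 counts and a ratio of -3.28 (interval -3.32 to -3.23). Both rows are above the wild type in the Gal83-deletion library and below it in the Mxr1-labelled one. A high-affinity glucose transporter (gene6) had 1073, 12984, 5562 and 5375 counts and a ratio of -3.28 (interval -3.37 to -3.19). A sugar porter of the MFS family (gene5412) differed in the other direction, with 4261, 712, 3154 and 1215 counts and 2.90. For glycolysis (1 of 18 higher and 3 lower, median -0.40, or 1 and 8 under total-count scaling), pyruvate kinase (gene2208) had 6317, 51433, 33105 and 16341 counts and a ratio of -2.71 (interval -2.75 to -2.67). The enolase-like row gene891 at 3.61 lies beside the carnitine acetyltransferase gene890, which has over 10 times its counts, so its ratio may carry reads of its neighbour, and this was not tested.

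**Figure D4:**
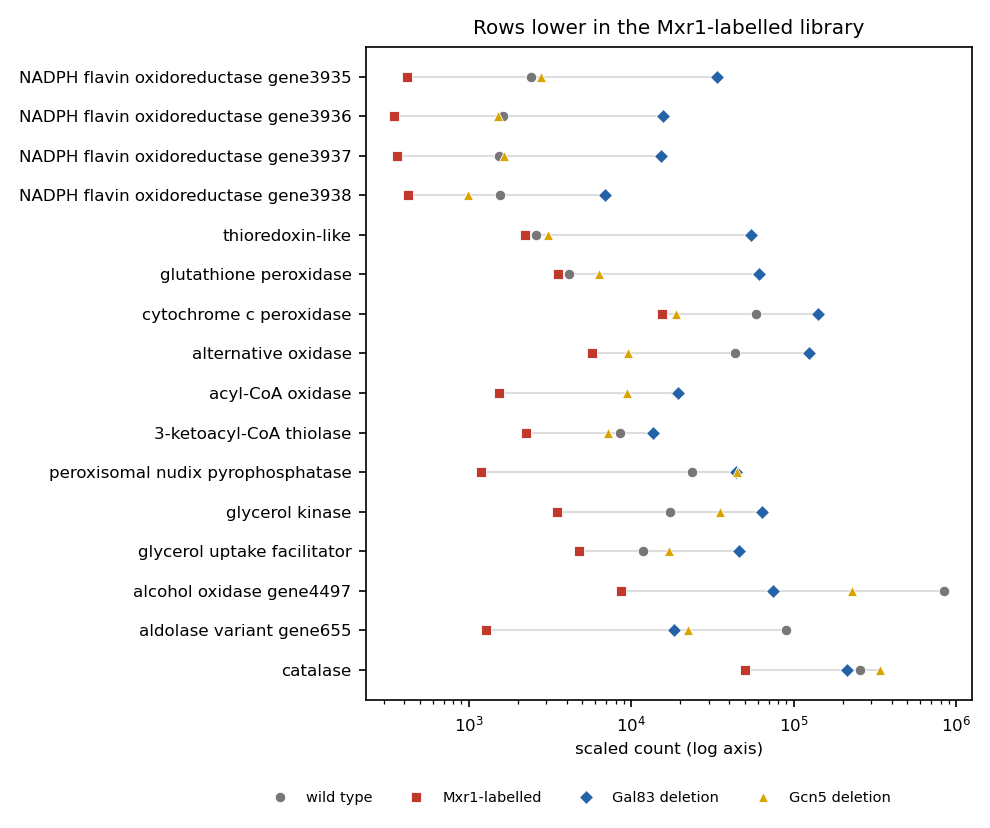
Scaled counts (log axis) of 16 rows lower in the Mxr1-labelled library, in the 4 libraries, 1 library per strain, with each symbol a library and the grey line the range. For the oxidoreductase, thioredoxin-like and peroxidase rows the blue diamond of the Gal83-deletion library lies furthest right, and in every row the red square of the Mxr1-labelled library lies furthest left.

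Surface and wall rows were lower in the Mxr1-labelled library more often than higher. Of 20 surface rows, 0 were called higher and 10 lower in the Mxr1-labelled library, beside 12.4% and 13.5% of all rows. Their median log2 ratio was -0.97. The same all-row shares stand beside the cell wall and protease counts that follow. The concanavalin A-like lectin or glucanase row (gene4789) had 1154 counts in the Mxr1-labelled and 39359 in the Gal83-deletion library, beside 34400 in the wild type and 39283 without Gcn5, a ratio of -4.78 (interval -4.86 to -4.69). A cell surface glycoprotein 1 row (gene1948) had 17863, 150684, 90322 and 445674 counts and a ratio of -2.76 (interval -2.78 to -2.74), with the Gcn5-deletion library far above the rest. Cell wall rows were split (5 of 40 higher and 13 lower, median -0.18, or 3 and 16 under total-count scaling), and the wall protein TIR3 (gene4825) at 3908, 38842, 44644 and 9155 counts and -3.00 was the lowest. Proteases likewise went both ways (5 of 23 higher and 6 lower, median -0.21, or 2 and 8 under total-count scaling): the acid protease row gene4025 had 18666, 328, 731 and 821 counts and a ratio of 6.14 (interval 5.99 to 6.31), and the papain-like row gene1618 had 1774, 72313, 5578 and 2186 counts and a ratio of -5.03 (interval -5.10 to -4.97).

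Sequence-specific transcription factors had 7 of 93 higher and 13 lower, median 0.03, or 2 and 27 under total-count scaling, beside 12.4% higher and 13.5% lower over all rows, so the share lower was near that of all rows. The lowest, a homeodomain repressor of the peptide transporter gene PTR2 (gene3713), had 440 counts in the Mxr1-labelled and 6266 in the Gal83-deletion library, beside 1582 in the wild type and 3626 without Gcn5, a ratio of -3.51 (interval -3.66 to -3.38). A bZIP factor (gene720), described as regulating the unfolded protein response, had 2031, 25361, 5446 and 3695 counts in the same order and a ratio of -3.33 (interval -3.39 to -3.26). The list for the Snf1 complex and glucose repression, which holds the deleted subunit, had 3 of 6 higher and 0 lower, median 0.70, or 1 and 0 under total-count scaling. A regulator of glucose repression of Gal4-controlled genes (gene1980) had 2165, 1250, 3003 and 1585 counts and a ratio of 1.11 (interval 1.01 to 1.21). The gamma subunit (gene2392), which senses adenine nucleotides, had 3302, 1940, 4467 and 1825 counts and a ratio of 1.08. The kinase row itself (gene2489) had 2475, 3655, 5600 and 4080 counts and a ratio of -0.25 (interval -0.32 to -0.17). The Gcn5 row (gene3103) had 1840, 3060, 2570 and 3 counts, low only in the Gcn5-deletion library, and a ratio of -0.42 (interval -0.50 to -0.33). Against the same all-row shares, core histones had 1 of 9 higher and 2 lower, median 0.19, and chaperones had 2 of 37 higher and 5 lower, median -0.10, or 0 and 9 under total-count scaling. Storage carbohydrate had 2 of 11 higher and 2 lower, median 0.17, or 2 and 4 under total-count scaling, and mitochondrial carriers had 5 of 27 higher and 2 lower, median -0.21, or 3 and 7 under total-count scaling.

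The wild-type level shows which of the 2 strains stands away from the parent. Of the 673 rows higher in the Mxr1-labelled library, the wild type lay within 2-fold of the Gal83-deletion library only in 214 (31.8%), of the Mxr1-labelled library only in 219 (32.5%), of both in 187 and of neither in 53. For the 733 lower rows the numbers were 183 (25.0%), 272 (37.1%), 190 and 88. On each side, then, some rows stood near the wild type in one strain and some near it in the other. Under total-count scaling these numbers changed by more than 1.5 times to 91 and 87 for the higher rows and 442 and 445 for the lower rows. Among rows past 4-fold they were 65 and 32, and 55 and 78.

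Some rows lay on opposite sides of the wild type, at least 2-fold above it in one library and at least 2-fold below it in the other. Of the 5420 rows, 18 had the Mxr1-labelled library above and 47 had the Gal83-deletion library above. These counts depend on how the wild type is scaled and were not repeated under total-count scaling. On the first side the 6 most different described rows were Crc1, an ammonia export row (gene765), the thiamine regulator (gene4808), the ferric reductase (gene3011), fatty acid synthase beta and a row required for ciclopirox resistance (gene4495) at 12713, 1962, 6372 and 2034 counts and 3.01. On the second side they were the flavin oxidoreductases gene3935, gene3936 and gene3937, the thiamine precursor kinase (gene3431), a Rossmann-fold row (gene1641) and the alternative oxidase. The Rossmann-fold row, of a family that binds NAD or NADP, had 4374 counts in the Mxr1-labelled and 139887 in the Gal83-deletion library, beside 45233 in the wild type and 16107 without Gcn5, a ratio of -4.68 (interval -4.73 to -4.64).

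**Figure D5:**
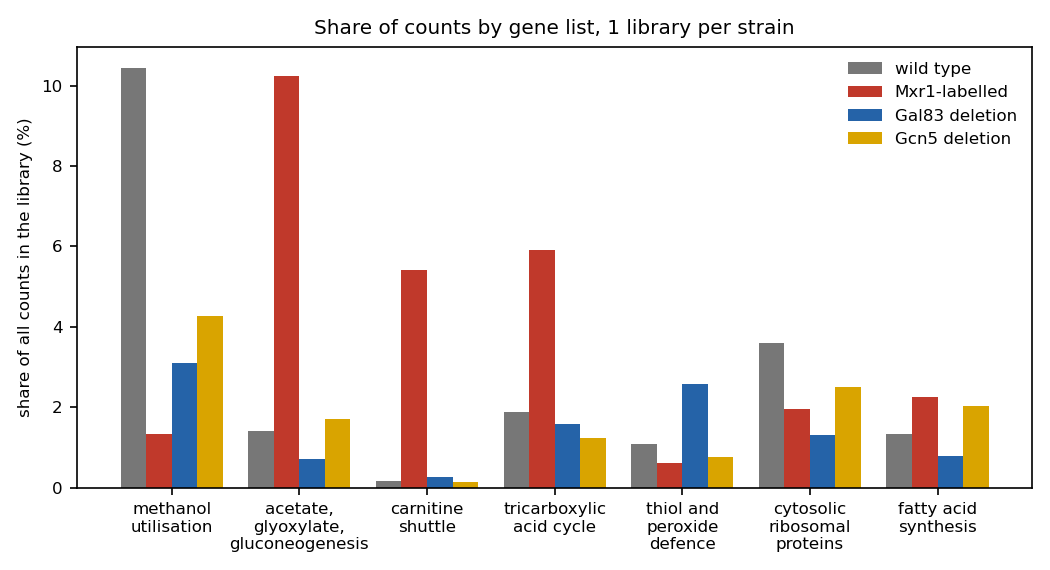
Share of all counts (%) taken by 7 gene lists in each of the 4 libraries, 1 library per strain, with bars starting at 0. Methanol utilisation is the tallest in the wild type, whereas in the Mxr1-labelled library the acetate, carnitine and tricarboxylic acid lists are tallest and in the Gal83-deletion library thiol and peroxide defence is above the 3 other libraries.

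Other strongly different rows belong to no list. A protein kinase-like row (gene3391) had 404 counts in the Mxr1-labelled and 36324 in the Gal83-deletion library, beside 1273 in the wild type and 667 without Gcn5, a ratio of -6.17 (interval -6.32 to -6.03), with the Gal83-deletion library alone high. It is numbered next to the peroxin row gene3390, and sharing of reads between them was not tested. A row described as a protein with internal repeats (gene2206) had 9557, 236473, 137135 and 384862 counts and a ratio of -4.31 (interval -4.34 to -4.28), high in the Gal83-deletion and Gcn5-deletion libraries. A cyclic-nucleotide phosphodiesterase row (gene5221) had 11889, 510, 960 and 916 counts and a ratio of 4.86 (interval 4.73 to 4.99), and it lies beside malate synthase 2, which has over 10 times its counts. The 2 undescribed rows among the highest, gene2211 and gene3906, were also picked after their values were seen and are miscellaneous RNA beside acetyl-CoA synthetases 1 and 2, with ratios of 5.82 (interval 5.69 to 5.95) and 4.88 (interval 4.62 to 5.16). The labels do not state strandedness, so reads of adjoining or overlapping genes cannot be told apart, and clusters of neighbouring rows were frequent. Of the rows called higher, 330 (49.0%) had an adjacent row called the same way, against 22.3% of all rows with a neighbour called higher. Of the rows called lower, 336 (45.8%) had one, against 24.6%. Leaving out the called rows beside a 10 times larger row called the same way gave 616 higher and 700 lower.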

How the data were processed

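The labels' protocols give total RNA from 4 strains, 1 library each, depleted of ribosomal RNA with a kit for bacteria. The authors deposited raw counts of reads per row, whole numbers with no normalization. Per the submitters' processing notes, the tools were featureCounts 1.6.4, DESeq2, Bowtie2, fastp 0.19.6 and bcl2fastq 2.19.0.316; roles, genome build and annotation are not given in the sources used here. Product descriptions are the files' own, since 0 locus tags and 0 protein identifiers matched the reference gene table, so no sequence is shown.

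The filter kept rows whose mean reached 20 counts (7 removed). The 2 compared libraries were scaled by the median of their ratios to their geometric mean, 0.5 was added to each count, and 95% intervals are Clopper-Pearson, for counting error only. The wild-type and Gcn5-deletion libraries were scaled by their median ratio to that same mean (factors 1.579 and 0.799). A call needed 2-fold and an interval excluding equality. With 1 library per strain, differences between cultures are not measured. On counts simulated for this comparison over 5420 rows, 200 of 200 changed rows were recovered with 0 false calls, and 94.8% of intervals held the true ratio. The simulation had counting noise only, with every changed row set beyond 2-fold and all other rows set equal. Recovery was therefore built in, and it does not bear on differences between cultures.

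The 36 gene lists were drawn from the descriptions and then trimmed by description where a member did not belong. Members, lists and rules were chosen with earlier results of these data known. Rows named are the deleted regulators and partners, all methanol rows, the 12 highest and 12 lowest described rows, up to 4 members per list with the largest differences, and 6 rows per side that lie on opposite sides of the wild type; 2 undescribed rows were passed over among the highest and 0 among the lowest. The few others are marked in the text as picked after their values were seen. Alternatives were total counts, TMM and upper-quartile factors (edgeR 4.0.16), DESeq2 1.42.0 size factors, scaling without the 20 highest rows, no filter, a mean of 100 counts, 5 added and a 4-fold rule; 3 added after seeing the data were protein-coding rows only and 2 that leave out neighbouring rows. Computations used matplotlib 3.10.9, pandas 2.3.3, numpy 2.4.6 and scipy 1.17.1 in Python 3.11.15, and R 4.3.3.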

Additional observations from a re-analysis of the deposited data

How the results depend on the processing

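The counts of 673 higher and 733 lower rows became 262 and 1468 under total-count scaling and 126 and 187 under the 4-fold rule. Under each of the other alternatives both counts stayed within 1.5 times, at 605 to 677 higher and 700 to 796 lower. Total-count scaling moved the median of all rows to -0.50, by its construction. All 262 of its higher rows were among the 673, and all 733 lower rows were among its 1468. It turned the sign of 8 list medians: ammonia export (0.23 to -0.26), sugar and glycerol uptake (0.03 to -0.47), storage carbohydrate (0.17 to -0.32), sterol synthesis (0.11 to -0.38), respiratory complexes III and IV (0.47 to -0.02), sulfur and methionine (0.07 to -0.42), core histones (0.19 to -0.30) and transcription factors (0.03 to -0.47). Upper-quartile factors turned 2 medians, of sugar uptake and transcription factors, both to -0.03. Leaving out rows beside a row with the same description turned 2, ammonia export to -2.20 and the pentose phosphate list from -0.35 to 0.18. The other alternatives turned 0. Of the 140 named rows called, 140 kept their direction under total-count scaling and 130 were still called. Upper-quartile factors kept 137 of them, and the 4-fold rule 99. Neither cultures nor library preparation were repeated, so no left-out replicate could be tried, and no paired analysis was possible because each strain had 1 library and the labels give no replicate numbers. Of the rows past 2-fold, 0 had a counting interval that included equality.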
